A study of Homo sapiens with 12 samples.

Results

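The genes described here are 50 genes of DNA replication and S phase, measured on microarrays in RCC4 cells, a long-established human line from a clear cell renal carcinoma, after silencing of TAZ (gene symbol WWTR1), a transcriptional coactivator of the Hippo pathway. They are a list of genes named for their roles, drawn up with earlier results of these data known. All 50 had a probe set on the array, among 11963 genes measured in all. Where a gene had several probe sets, the brightest by its mean over the 12 arrays stood for it. For 2 days the cells carried an siRNA that was either non-targeting (siNT) or directed at TAZ (siTAZ), and for the 7 hours that followed they were given erastin at 1 µM or its vehicle, DMSO. Erastin blocks cystine uptake through system xc- and is used to induce ferroptosis, an iron-dependent form of cell death. The 4 groups were siNT with vehicle, siNT with erastin, siTAZ with vehicle and siTAZ with erastin, each with 3 arrays that the submitters call biological triplicates. All groups came from the same cell line, and all had been transfected with an siRNA. The silencing question was asked in each medium and for the mean of both media, the erastin question in each siRNA group, and the interaction asked whether erastin acted differently after silencing.

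Replication starts at origins bound by the origin recognition complex. CDC6 and CDT1 load the MCM helicase there in G1, which is called licensing. In S phase the kinase CDC7 with DBF4, together with CDC45 and the GINS complex, turns the loaded helicase into an active fork. Primase and DNA polymerases alpha, delta and epsilon then copy the strands with the sliding clamp PCNA, its loader RFC and the single-strand binding complex RPA. Many of these genes are known targets of E2F transcription factors, which are released when cyclin E and CDK2 inactivate the retinoblastoma protein.

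WWTR1 itself read 12.19 to 12.35 on the 6 siNT arrays and 9.09 to 9.46 on the 6 siTAZ arrays, on the log2 signal scale used throughout, which left 13.0% of its signal in vehicle and 11.5% under erastin. Its paralog YAP1 differed by −0.02 ± 0.07 (SE, n = 3 arrays a group) and −0.01 ± 0.07 and was not called. Of the renal carcinoma markers, PAX8, PAX2, VIM, KRT8 and KRT18 had mean signals of 10.6, 8.20, 13.5, 9.59 and 9.98, and CA9 and NDUFA4L2 were not analysed here. These markers moved with silencing too: KRT18 fell by 1.06 ± 0.06 in vehicle and by 1.01 ± 0.06 under erastin, KRT8 fell by 0.29 ± 0.08 under erastin, and PAX2 rose by 0.40 ± 0.07 in each medium. In the mean of both media 3 of the 5 fell and 1 rose, and their part in the members' result was not tested. Median signals of marker lists for leukocytes, endothelial cells, fibroblasts and erythroid cells were 4.11, 4.34, 4.67 and 5.70, and no measured gene of these 4 other lists was called in any comparison. The members had mean signals of 6.25 to 12.5, so none lay at or under the brightest of those list medians. Single genes of those lists were brighter, up to 7.43 for fibroblasts and 6.43 for erythroid cells. CDT1 at 6.25 lay under both values, and PRIM2, ORC1 and CDC45 at 6.75, 7.09 and 7.36 lay under the fibroblast value. Array medians ranged from 6.48 to 6.54. The difference between the 3′ and 5′ control probe sets for actin, a measure of RNA integrity and labelling, was 2.40 to 2.97 in siNT vehicle, 1.49 to 2.82 in siNT erastin, 2.62 to 2.70 in siTAZ vehicle and 3.01 to 3.63 in siTAZ erastin. Under erastin it therefore did not overlap between the siRNA groups, while the same difference for GAPDH ranged from 0.07 to 0.28 over all arrays and overlapped between every pair of groups. Member values within a group had standard deviations of 0.025 to 0.156 with a median of 0.070.

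Silencing of TAZ was followed by lower signal for many replication genes, led by ribonucleotide reductase subunit RRM2, both E-type cyclins and the uracil-DNA glycosylase UNG. In vehicle, 23 of the 50 members fell (46%) and 2 rose (4%), ORC4 and POLD3. Over all 11963 genes, 13.9% fell and 14.7% rose in that comparison (limma, Benjamini-Hochberg adjusted over all genes, called at an adjusted p under 0.05). The median log2 fold change was −0.16 for the members and −0.01 for all genes, and 41 members lay below 0. Under erastin, 14 members fell (28%) and 3 rose (6%), POLD3, POLE and RPA2, where 12.6% of all genes fell and 15.6% rose. The member median was −0.10 there against 0.01 for all genes, and 35 members lay below 0. For the mean of both media, 29 members fell (58%) and 5 rose (10%), where 17.9% of all genes fell and 19.9% rose, with medians of −0.13 and −0.01. The extracts are bulk RNA, so fewer cells in S phase and less of each transcript per cell cannot be told apart.

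The counts depended on single arrays more than the leading genes did. Without siNT vehicle replicate 1 the number of members that fell in vehicle was 12, and it was 14 without siNT vehicle replicate 2, 15 without siTAZ vehicle replicate 2 and 13 without siTAZ vehicle replicate 3. The number was 17 without siTAZ vehicle replicate 1 and 22 without siNT vehicle replicate 3. Under erastin it was 9 without siNT erastin replicate 3, 9 without siTAZ erastin replicate 1 and 8 without siTAZ erastin replicate 2. Calls over all genes, in either direction, dropped too with each array left out, from 3419 to between 2809 and 3030 in vehicle. Under erastin they dropped from 3369 to between 2775 and 3236. The shares of all genes that fell in these fits are not given here. With the actin difference added to the fit as a covariate, 25 members fell and 3 rose in vehicle, where 15.7% of all genes fell and 16% rose. Under erastin that fit lowered 6 members (CCNE1, CCNE2, E2F1, PRIM2, RRM2 and UNG) and raised 2 (POLD3 and RPA2), where 8.72% of all genes fell and 12.6% rose. The members' 6 of 50 is 12% and their 2 of 50 is 4%, so with this covariate the members that fell under erastin were a share near that of all genes. When only the 2 compared groups were fitted, POLD3 and RRM1 were not called in vehicle, and ORC1, MCM7, POLD2, POLE, POLE2, RPA2 and TK1 were not called under erastin. RRM1 was also not called in vehicle with the mean of all probe sets, CDT1 under erastin with a trended and robust prior, and POLE2 under erastin with array weights.

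**Figure D1:**
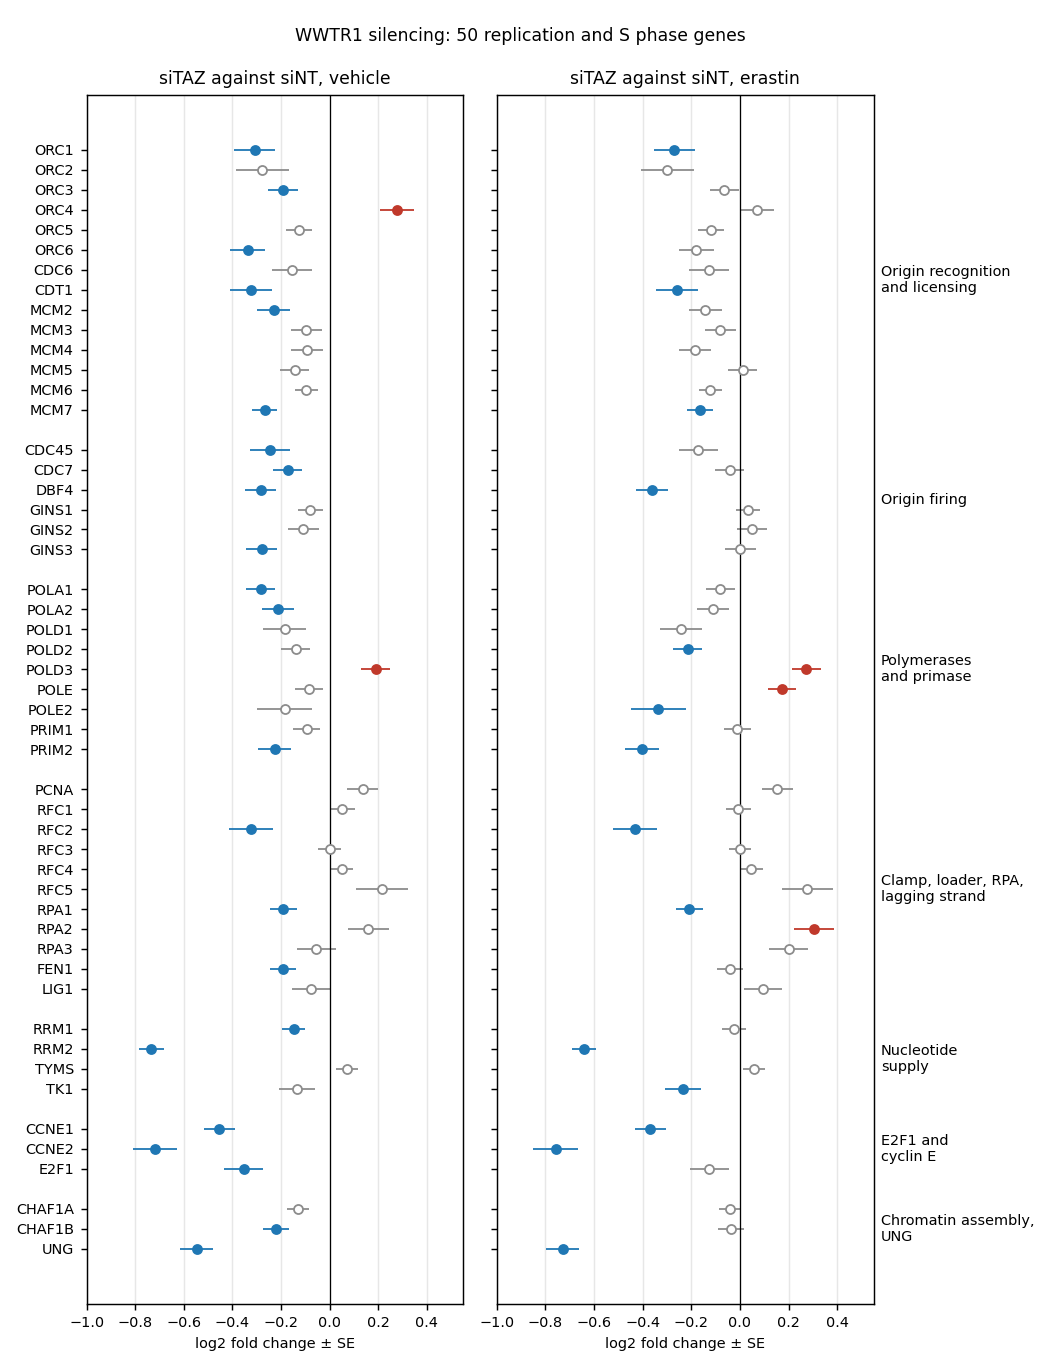
Log2 fold change of siTAZ against siNT for each of the 50 members, in vehicle and under erastin, with bars for the standard error and members grouped by role. Blue filled points fell, red filled points rose and grey open points were not called. The lowest points are RRM2, CCNE2 and UNG in both media, and ORC4 and POLD3 are the only risen members in vehicle.

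The same 11 members fell in each medium: ORC1, CDT1, MCM7, DBF4, PRIM2, RFC2, RPA1, RRM2, CCNE1, CCNE2 and UNG. Of these, ORC1, CDT1, MCM7, DBF4, RFC2 and RPA1 were not called under erastin with the actin covariate. Another 12 were called lower in vehicle and not under erastin, and POLD2, POLE2 and TK1 under erastin and not in vehicle. The difference between the media is the interaction, and it was not called for any member. For the mean of both media, ORC2, ORC5, MCM4, MCM6 and POLD1 fell and PCNA and RFC5 rose although none of them was called in either medium alone. With the actin covariate, none of these 7 was called for that mean. The remaining 13 members were called in none of the 3 silencing comparisons. They were CDC6, MCM3, MCM5, GINS1, GINS2, PRIM1, RFC1, RFC3, RFC4, RPA3, LIG1, TYMS and CHAF1A.

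The genes that drive entry into S phase, E2F1 and the E-type cyclins, had the lowest class median, −0.45 in vehicle and −0.37 under erastin. All 3 fell in vehicle, and both cyclins fell under erastin. Over all genes, 13.9% fell in vehicle and 12.6% under erastin. CCNE2, the second E-type cyclin, read 8.86, 8.73 and 8.62 in siNT vehicle, 8.31, 8.12 and 8.53 in siNT erastin, 8.04, 8.03 and 7.99 in siTAZ vehicle, and 7.55, 7.54 and 7.59 in siTAZ erastin. The 4 groups formed a descending series without overlap. Silencing changed it by −0.72 ± 0.09 in vehicle (limma adjusted p = 8.13e-05) and −0.76 ± 0.09 under erastin (adjusted p = 5.68e-05). CCNE1, the partner of CDK2 at the G1 to S transition, read 8.34, 8.41 and 8.28 in siNT vehicle, 7.99, 7.98 and 8.11 in siNT erastin, 7.89, 7.98 and 7.80 in siTAZ vehicle, and 7.63, 7.64 and 7.70 in siTAZ erastin. It was highest on the siNT vehicle arrays and lowest on the siTAZ erastin arrays, and the middle groups overlapped narrowly at 7.98. Silencing changed it by −0.45 ± 0.06 (adjusted p = 0.000152) and −0.37 ± 0.06 (adjusted p = 0.000763). E2F1, the activator E2F, read 8.17, 8.17 and 8.36 in siNT vehicle and 7.76, 7.98 and 7.90 in siTAZ vehicle. Under erastin it read 8.12, 8.04 and 7.86 with siNT and 7.84, 7.92 and 7.88 with siTAZ, and the groups overlapped. E2F1 fell by 0.35 ± 0.08 on the log2 scale in vehicle (adjusted p = 0.00532), and its difference under erastin was −0.13 ± 0.08 (adjusted p = 0.3), although its second, dimmer probe set fell there. Its interaction was 0.23 ± 0.11 (unadjusted p = 0.07, adjusted p = 0.776), so a difference between the media was not shown.

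Since 29 of the 50 members fell in the mean of both media, the promoters of the list were searched for letters of the E2F site. The sequences came from RefSeq on GRCh38.p14, taken as the 250 bases before each annotated start, and 44 of the 50 members had one. MCM4, MCM5, RPA2, RPA3, CCNE2 and POLD3 did not match. The letters searched on both strands were TTTCCCGC, TTTGGCGC, TTTCGCGC and TTTGCCGC, of which TTTGGCGC and TTTCGCGC overlap each other on opposite strands. They occurred in 2.79% of all 35116 promoters of this length and for 16 of the 44 members (36.4%). Over the 27305 genes with such a promoter, a set not limited to genes on the array, the share was 3.40%. The 6 stretches below show the letters in E2F1 and in members of 3 other role classes. E2F1, CDT1, POLA2 and MCM6 fell in at least 1 silencing comparison, MCM3 was not called in any, and PCNA rose in the mean of both media. Capitals mark the matched letters, and each stretch is written 5′ to 3′ on the strand of the gene.
E2F1, chr20:33686386-33686438, minus strand: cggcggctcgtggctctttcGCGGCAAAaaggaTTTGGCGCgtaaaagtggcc
CDT1, chr16:88803734-88803781, plus strand: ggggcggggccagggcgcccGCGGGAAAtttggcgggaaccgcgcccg
MCM6, chr2:135876502-135876615, minus strand: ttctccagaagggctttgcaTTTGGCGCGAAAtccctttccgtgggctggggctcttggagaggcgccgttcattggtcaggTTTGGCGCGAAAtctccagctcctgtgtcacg
POLA2, chr11:65261889-65261936, plus strand: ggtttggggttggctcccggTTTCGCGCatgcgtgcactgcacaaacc
MCM3, chr6:52284889-52284936, minus strand: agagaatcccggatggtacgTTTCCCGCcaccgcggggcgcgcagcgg
PCNA, chr20:5126654-5126701, minus strand: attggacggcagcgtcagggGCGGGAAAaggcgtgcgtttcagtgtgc

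Members with and without these letters both had medians below 0 after silencing. Of the 16 with a match, 8 fell, 1 rose and 7 were not called in the mean of both media, with a median of −0.11. Of the 28 without one, 19 fell, 2 rose and 7 were not called, with a median of −0.18. In vehicle 8 of the 16 and 14 of the 28 fell, and under erastin 3 of the 16 and 10 of the 28. The letters CCAAT, searched on both strands, were present for 25 of the 44 members (56.8%) and for 37.0% of the 27305 genes with a promoter. In the mean of both media, 14 of those 25 and 13 of the 19 without CCAAT fell. The letters TTTGAA or TTTAAA, a form of the cell cycle homology region, were present for 7 members (15.9%) and for 25.5% of those 27305 genes. Those 7 were CDC45, PRIM2, RRM1, RRM2, TK1, CCNE1 and UNG, of which 6 fell in vehicle and 5 under erastin. Of the 37 members without these letters, 16 fell in vehicle and 8 under erastin. In the mean of both media 6 of the 7 and 21 of the 37 fell. Over all 11963 genes, 13.9% fell and 14.7% rose in vehicle, and 12.6% and 15.6% under erastin. For the mean of both media these shares were 17.9% and 19.9%. How often genes outside the list fell with any of these letters was not determined. Differences between members with and without them were not tested. A match is a description of letters and not of a bound site, and the lack of a match does not show that a gene has no such site.

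Among the 4 genes of nucleotide supply, RRM2 changed most. This small subunit of ribonucleotide reductase, which turns ribonucleotides into deoxyribonucleotides, read 11.06, 11.05 and 11.07 in siNT vehicle and 10.34, 10.30 and 10.33 in siTAZ vehicle. Under erastin it read 10.81, 10.88 and 10.94 with siNT and 10.22, 10.20 and 10.28 with siTAZ. All siTAZ arrays lay below all siNT arrays. RRM2 fell by 0.73 ± 0.05 in vehicle (limma adjusted p = 6.27e-07), so that its signal dropped by 39.9%, and by 0.64 ± 0.05 under erastin (adjusted p = 1.93e-06). The large subunit RRM1 read 11.87, 11.82 and 11.85 in siNT vehicle and 11.72, 11.69 and 11.69 in siTAZ vehicle. It fell by 0.15 ± 0.05 (adjusted p = 0.034), a call that was lost when any array of the pair of groups was left out. Thymidine kinase TK1, of the salvage pathway, read 9.51, 9.50 and 9.53 in siNT erastin and 9.38, 9.10 and 9.36 in siTAZ erastin. It fell by 0.23 ± 0.07 under erastin (adjusted p = 0.0307), and the call was lost whichever siNT erastin array was left out, and without siTAZ erastin replicate 2. Thymidylate synthase TYMS read 12.47 to 12.50 in siNT vehicle and 12.53 to 12.57 in siTAZ vehicle and was not called in any silencing comparison.

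UNG, which removes uracil from DNA, read 8.92, 9.02 and 8.92 in siNT vehicle and 8.45, 8.43 and 8.33 in siTAZ vehicle. Under erastin it read 8.86, 8.76 and 8.97 with siNT and 8.11, 8.07 and 8.23 with siTAZ, the lowest group. UNG fell by 0.55 ± 0.07 in vehicle (limma adjusted p = 6.6e-05) and by 0.73 ± 0.07 under erastin (adjusted p = 7.04e-06). CHAF1B, a subunit of the chromatin assembly factor that places histones behind the fork, read 7.56, 7.57 and 7.65 in siNT vehicle and 7.39, 7.37 and 7.37 in siTAZ vehicle. It fell by 0.22 ± 0.05 in vehicle (adjusted p = 0.00885) and was not called under erastin, where siNT read 7.47, 7.48 and 7.35 and siTAZ 7.35, 7.37 and 7.46. Its partner subunit CHAF1A was not called in any silencing comparison.

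Origin recognition and licensing was the largest class, with 14 members. In vehicle 6 fell and 1 rose, under erastin 3 fell, and in the mean of both media 10 fell and 1 rose, with class medians of −0.17, −0.14 and −0.14. The shares that fell were 42.9%, 21.4% and 71.4%, against 13.9%, 12.6% and 17.9% of all genes. ORC6, the smallest origin recognition subunit, read 9.34, 9.39 and 9.32 in siNT vehicle and 9.14, 8.89 and 9.03 in siTAZ vehicle. In erastin, ORC6 read 9.16, 8.96 and 9.13 with siNT and 8.87, 8.94 and 8.90 with siTAZ. It fell by 0.34 ± 0.07 in vehicle (limma adjusted p = 0.0036) and kept the call without each array of those groups. CDT1, the loading factor, read 6.53, 6.57 and 6.44 in siNT vehicle and 5.98, 6.38 and 6.21 in siTAZ vehicle. In erastin, CDT1 read 6.31, 6.27 and 6.26 with siNT and 6.03, 5.94 and 6.09 with siTAZ. The groups did not overlap in either medium, and the differences were −0.32 ± 0.09 (adjusted p = 0.0139) and −0.26 ± 0.09 (adjusted p = 0.0439). The vehicle call was lost without siNT vehicle replicate 2 and the erastin call whichever array of its groups was left out. ORC1, the subunit that cells degrade and resynthesise each cycle, read 7.42, 7.40 and 7.34 in siNT vehicle and 7.07, 7.07 and 7.09 in siTAZ vehicle. Under erastin it read 7.07, 7.08 and 7.12 with siNT and 6.73, 6.67 and 7.06 with siTAZ. It fell by 0.31 ± 0.08 in vehicle (adjusted p = 0.0142) and by 0.27 ± 0.08 under erastin (adjusted p = 0.0294). The vehicle call was lost without siNT vehicle replicate 1, and the erastin call was kept only without siTAZ erastin replicate 3.

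ORC4, another origin recognition subunit, went the other way. It read 10.26, 10.29 and 10.12 in siNT vehicle and 10.55, 10.49 and 10.46 in siTAZ vehicle, and rose by 0.28 ± 0.07 (limma adjusted p = 0.00966). Under erastin, siNT read 10.30, 10.21 and 10.45 and siTAZ 10.43, 10.34 and 10.40, which overlapped. Of the helicase subunits, MCM7 read 10.02, 9.99 and 9.95 in siNT vehicle and 9.69, 9.76 and 9.71 in siTAZ vehicle, and 9.91, 9.81 and 9.85 against 9.70, 9.62 and 9.76 under erastin. It fell by 0.27 ± 0.05 (adjusted p = 0.00208) and 0.16 ± 0.05 (adjusted p = 0.0353). The erastin call was lost without siNT erastin replicate 1 or 3 and without siTAZ erastin replicate 1 or 2. MCM2 fell in vehicle by 0.23 ± 0.07 (adjusted p = 0.0221) and ORC3 by 0.19 ± 0.06 (adjusted p = 0.0322), and both calls were kept only without siNT vehicle replicate 3. MCM4 and MCM6 fell in the mean of both media, while MCM3, MCM5 and CDC6 were not called. The MCM4 and MCM6 calls were lost with the actin covariate. When arrays were left out in turn, MCM4 kept its call in 5 of 12 fits.

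Of the 6 genes of origin firing, 4 fell in vehicle and 1 under erastin, with class medians of −0.21 and −0.02. These were 66.7% and 16.7% of the class against 13.9% and 12.6% of all genes, so the erastin share was near that of all genes. DBF4, the activating subunit of the CDC7 kinase, fell in each medium. It read 10.52, 10.53 and 10.41 in siNT vehicle and 10.27, 10.12 and 10.22 in siTAZ vehicle, and 10.46, 10.41 and 10.60 against 10.12, 10.10 and 10.18 under erastin. The differences were −0.28 ± 0.07 (limma adjusted p = 0.00542) and −0.36 ± 0.07 (adjusted p = 0.00116). The erastin call of DBF4 was lost with the actin covariate. GINS3, a subunit of the GINS complex, read 7.68, 7.85 and 7.79 in siNT vehicle against 7.49, 7.54 and 7.44 in siTAZ vehicle, and 7.53, 7.41 and 7.52 against 7.41, 7.50 and 7.55 under erastin. The siNT vehicle arrays stood above the other 3 groups, which overlapped. GINS3 fell by 0.28 ± 0.06 in vehicle (adjusted p = 0.0049). The helicase activator CDC45 read 7.52, 7.60 and 7.40 in siNT vehicle and 7.23, 7.32 and 7.23 in siTAZ vehicle, and fell by 0.25 ± 0.08 (adjusted p = 0.0386). CDC7, the kinase subunit, read 8.82, 8.79 and 8.88 in siNT vehicle and 8.68, 8.62 and 8.67 in siTAZ vehicle, and fell by 0.17 ± 0.06 (adjusted p = 0.0442). The CDC45 call was kept only without siNT vehicle replicate 3, and the CDC7 call was lost whichever array of its groups was left out.

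Among the 9 polymerase and primase genes, 3 fell and 1 rose in vehicle, and 3 fell and 2 rose under erastin. In vehicle 33.3% thus fell and 11.1% rose, against 13.9% and 14.7% of all genes. Under erastin 33.3% fell and 22.2% rose, against 12.6% and 15.6% of all genes. PRIM2, the large primase subunit, read 6.92, 6.87 and 6.83 in siNT vehicle and 6.75, 6.55 and 6.65 in siTAZ vehicle. In erastin, PRIM2 read 7.05, 6.82 and 6.92 with siNT and 6.51, 6.53 and 6.54 with siTAZ. It fell by 0.23 ± 0.07 (limma adjusted p = 0.0263) and 0.40 ± 0.07 (adjusted p = 0.000793). The vehicle call of PRIM2 failed when siNT vehicle replicate 1 or 2, or siTAZ vehicle replicate 2 or 3, was left out, and the erastin call was kept without each array. POLA1, the catalytic subunit of polymerase alpha, read 8.26, 8.30 and 8.17 in siNT vehicle and 7.93, 8.04 and 7.92 in siTAZ vehicle, and fell by 0.28 ± 0.06 (adjusted p = 0.00322). Under erastin its groups overlapped, at 8.02, 8.04 and 8.11 with siNT and 7.92, 7.96 and 8.05 with siTAZ. POLA2, the second subunit of polymerase alpha, read 7.79, 7.76 and 7.72 in siNT vehicle and 7.50, 7.64 and 7.50 in siTAZ vehicle, and fell by 0.21 ± 0.07 (adjusted p = 0.0282). That call did not survive leaving out siNT vehicle replicate 1 or 2, or siTAZ vehicle replicate 1 or 3.

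Accessory subunits of polymerases delta and epsilon moved in opposite directions. POLD3, a polymerase delta subunit, read 8.21, 8.32 and 8.16 in siNT vehicle against 8.35, 8.45 and 8.46 in siTAZ vehicle, and 8.01, 8.04 and 7.99 against 8.23, 8.26 and 8.37 under erastin. It rose by 0.19 ± 0.06 (limma adjusted p = 0.0317) and 0.27 ± 0.06 (adjusted p = 0.00412). The vehicle call of POLD3 failed when siNT vehicle replicate 1 or 3, or siTAZ vehicle replicate 2 or 3, was left out, and the erastin call was kept without each array. POLD2, another delta subunit, read 8.71, 8.73 and 8.75 in siNT erastin and 8.48, 8.44 and 8.62 in siTAZ erastin, and fell by 0.22 ± 0.06 (adjusted p = 0.0179), a call lost without siTAZ erastin replicate 1 or 2. POLE2, a polymerase epsilon subunit, read 7.58, 7.59 and 8.09 in siNT erastin and 7.42, 7.33 and 7.51 in siTAZ erastin, and fell by 0.34 ± 0.11 (adjusted p = 0.0431). Its siNT erastin replicate 3 stood well above the other 2 arrays, and the call was lost without it and whichever siTAZ erastin array was left out. POLE, the catalytic subunit of polymerase epsilon, rose by 0.17 ± 0.06 under erastin (adjusted p = 0.0428), and the call was kept only without siTAZ erastin replicate 2. It was lost with arrays centred on their medians, after a second quantile normalisation and when only the 2 compared groups were fitted. The POLE call was also lost with the actin covariate and with the replicate block.

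The 11 genes of the clamp, its loader, single-strand binding and the lagging strand had class medians of 0.00 in vehicle and 0.05 under erastin. RFC2, a clamp loader subunit, read 9.33, 9.18 and 9.12 in siNT vehicle and 8.97, 8.86 and 8.83 in siTAZ vehicle, and 9.13, 9.23 and 9.17 against 8.89, 8.53 and 8.83 under erastin. It fell by 0.32 ± 0.09 (limma adjusted p = 0.017) and 0.43 ± 0.09 (adjusted p = 0.00327). RPA1, the large RPA subunit, read 11.24, 11.26 and 11.15 in siNT vehicle and 11.06, 11.02 and 10.99 in siTAZ vehicle, and 11.19, 11.11 and 11.23 against 11.00, 10.94 and 10.96 under erastin. It fell by 0.19 ± 0.05 (adjusted p = 0.0183) and 0.21 ± 0.05 (adjusted p = 0.0118). RPA2, the middle subunit of the same complex, read 8.37, 8.38 and 8.63 in siNT erastin and 8.77, 8.65 and 8.88 in siTAZ erastin, and rose by 0.30 ± 0.08 (adjusted p = 0.0159). FEN1, the flap nuclease that trims Okazaki fragments, read 12.09, 12.02 and 12.11 in siNT vehicle and 11.94, 11.83 and 11.87 in siTAZ vehicle, and fell by 0.19 ± 0.05 (adjusted p = 0.0154). In vehicle, RFC2 and FEN1 lost the call without siNT vehicle replicate 1 and without siTAZ vehicle replicate 2 or 3, and RPA1 also without siNT vehicle replicate 2. RPA2 lost its call without siNT erastin replicate 1 or 2 and without siTAZ erastin replicate 3, whereas RFC2 and RPA1 kept theirs under erastin without each array. With the actin covariate RFC2 and RPA1 lost their erastin calls. In the mean of both media the clamp PCNA rose by 0.14 ± 0.04 (adjusted p = 0.0217) and the loader subunit RFC5 by 0.25 ± 0.07 (adjusted p = 0.02), and for each the siNT and siTAZ arrays overlapped. The PCNA call was lost with arrays centred on their medians, the RFC5 call with the mean of all probe sets, and both with the actin covariate.

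**Figure D2:**
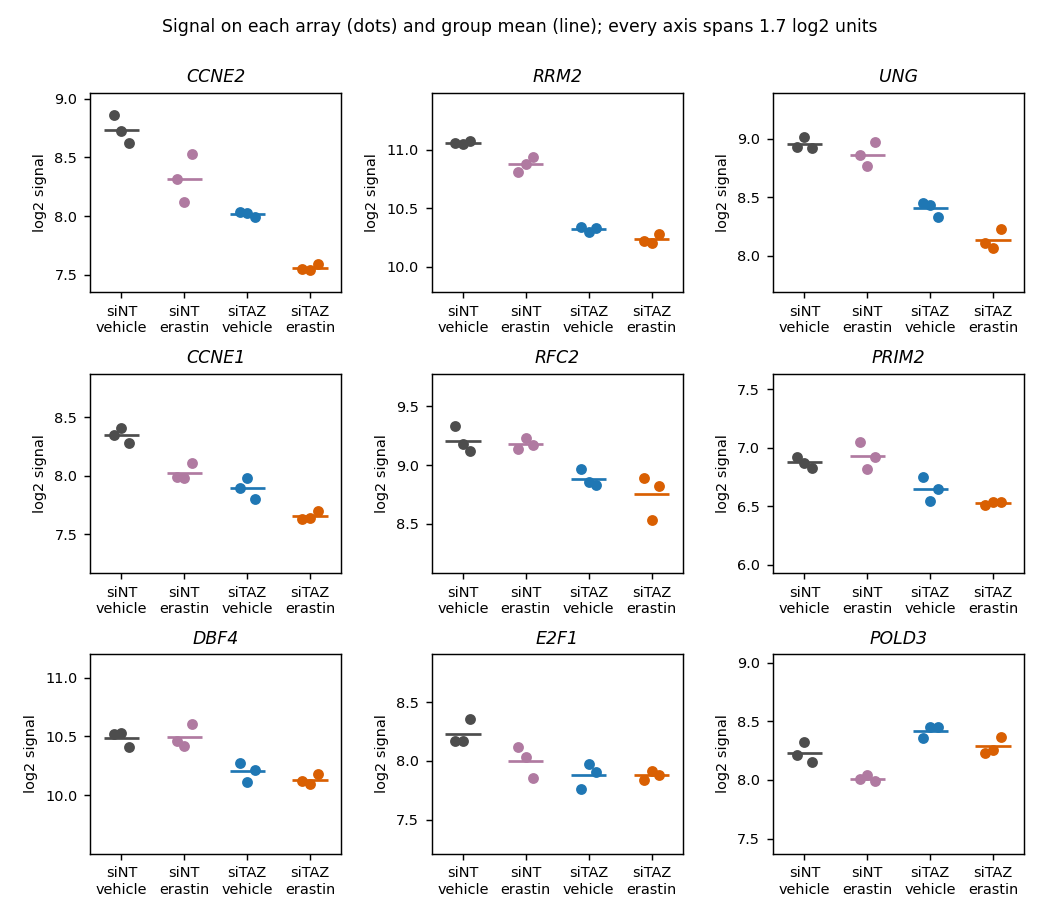
Log2 signal of 9 members on each of the 12 arrays, by group, with 1 dot for each array and a line at the group mean. CCNE2 descends from 8.62 to 8.86 in siNT vehicle to 7.54 to 7.59 in siTAZ erastin, RRM2 and UNG separate by siRNA, and POLD3 is the panel in which siTAZ arrays lie above siNT arrays in each medium.

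Averaged over each role class, array by array, the shift separated the groups by different amounts. All 50 members together lay −0.03 to 0.01 from the siNT vehicle mean on the siNT vehicle arrays, −0.15 to −0.09 on siNT erastin, −0.18 to −0.16 on siTAZ vehicle and −0.27 to −0.19 on siTAZ erastin. E2F1 and the E-type cyclins went from −0.02 to 0.02 through −0.40 to −0.27 and −0.54 to −0.44 to −0.77 to −0.71 in the same order, with no overlap. Nucleotide supply genes lay at −0.09 to −0.06 on siNT erastin and −0.26 to −0.22 on siTAZ vehicle, and chromatin assembly with UNG at −0.15 to −0.11 and −0.33 to −0.27. Clamp, loader, RPA and lagging strand genes stayed between −0.09 and 0.02 on all 12 arrays.

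**Figure D3:**
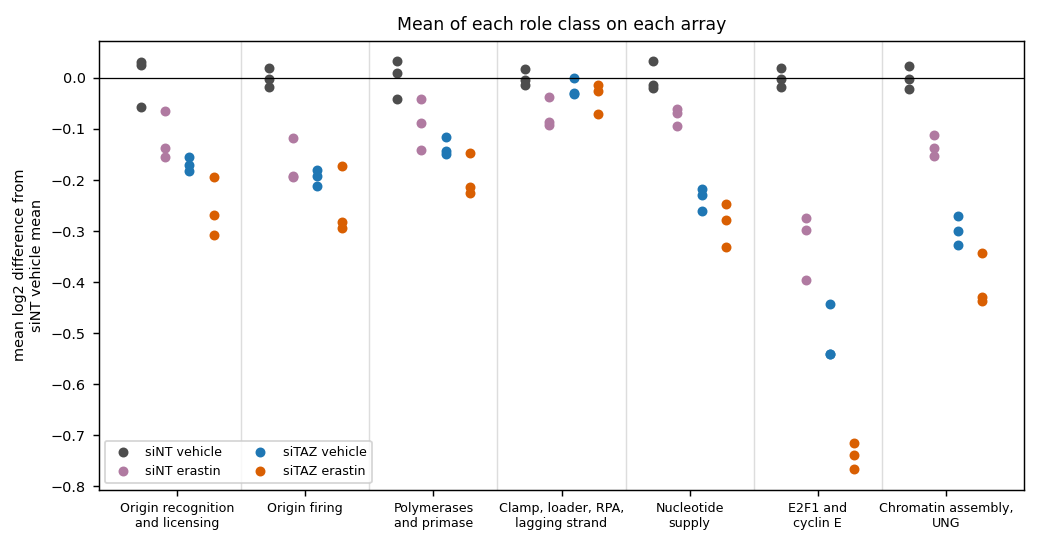
Mean log2 difference from the siNT vehicle mean over the members of each role class, with 1 dot for each array and the 4 groups side by side. E2F1 and the E-type cyclins reach −0.77 on a siTAZ erastin array, whereas the clamp, loader, RPA and lagging strand class lies between −0.09 and 0.02.

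For 19 members the array carried several probe sets, which sample different parts of a transcript. In the mean of both media, every probe set was below 0 for 12 of them and above 0 for ORC4 and TYMS, and 5 members had probe sets of both signs, CHAF1A, ORC5, RFC1, RFC3 and RFC5. RRM2 differed most in size. Its brightest probe set fell by 0.69 ± 0.04 and its second fell by 1.38 ± 0.03. For E2F1 they were at −0.24 and −0.23 in the mean of both media and for RFC2 at −0.38 and −0.45. Under erastin, where the brightest E2F1 probe set was not called, the second fell by 0.24 ± 0.07 (limma adjusted p = 0.0201, adjusted over all probe sets). The dimmer CCNE2 probe set, with a mean signal of 5.62, was at −0.35 ± 0.15 and not called. RFC3 was at 0.00 on its brightest probe set and −0.33 on the second. RFC5, a riser on its brightest probe set at 0.25, was at 0.18 and −0.13 on the others. The direction of RFC5 thus depended on the probe set.

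**Figure D4:**
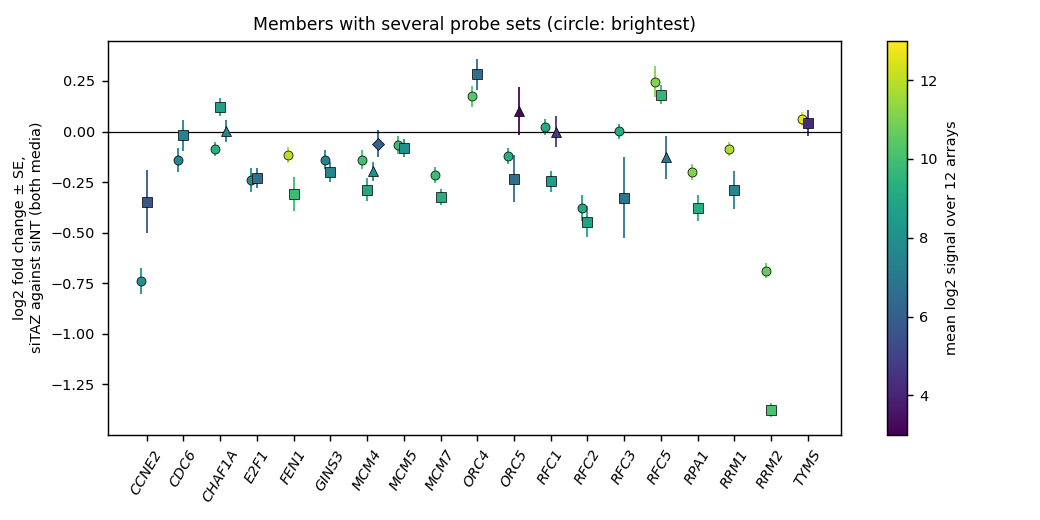
Log2 fold change of siTAZ against siNT, mean of both media, for every probe set of the 19 members with several, with a circle for the brightest, other shapes for the rest and colour for the mean signal. The RRM2 probe sets lie at −0.69 and −1.38, and those of RFC5 span −0.13 to 0.25.

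Erastin gave few calls at 7 hours. In siNT cells 2 members fell, GINS1 and CCNE1, and 0 rose, where 0.276% of all genes fell and 0.527% rose (limma, adjusted p under 0.05). GINS1, a subunit of the GINS complex, read 11.41, 11.44 and 11.39 in siNT vehicle and 11.07, 11.16 and 11.21 in siNT erastin, and fell by 0.26 ± 0.05 (adjusted p = 0.037). CCNE1 fell by 0.32 ± 0.06 (adjusted p = 0.0379). Both calls were kept only without siNT erastin replicate 3 when arrays were left out in turn, and both were lost when only the 2 groups were fitted. CCNE2 was at −0.42 ± 0.09 (adjusted p = 0.0658) and GINS3 at −0.28 ± 0.06 (adjusted p = 0.0679), and neither was called. Most members lay slightly below 0 in this comparison, 42 of 50 (84%) against 51.6% of all genes, with medians of −0.11 and −0.00. At an unadjusted p under 0.05, 23 members were lower and 0 higher, where 6.08% of all genes were lower and 4.33% higher.

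In siTAZ cells, erastin called 0 members in limma, where 0.1% of all genes fell and 0.46% rose. At an unadjusted p under 0.05, 8 members were lower and 0 higher, where 4.45% of all genes were lower and 5.75% higher. The member median was −0.06 against 0.01 for all genes. CCNE2 came closest, at −0.46 ± 0.09 (adjusted p = 0.0533), followed by UNG at −0.27 ± 0.07 (adjusted p = 0.143) and CCNE1 at −0.23 ± 0.06 (adjusted p = 0.183). With the actin covariate CCNE1, CCNE2 and GINS1 fell in siNT cells, where 0.284% of all genes fell and 0.426% rose, and 0 members were called in siTAZ cells, where 0.00836% fell and 0.368% rose. The class medians in siNT and siTAZ cells were −0.32 and −0.23 for E2F1 and the E-type cyclins, −0.19 and −0.04 for origin firing, and −0.13 and −0.10 for licensing. The siNT vehicle arrays serve as control in one silencing comparison and in one erastin comparison, so these values are not independent of the silencing values.

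**Figure D5:**
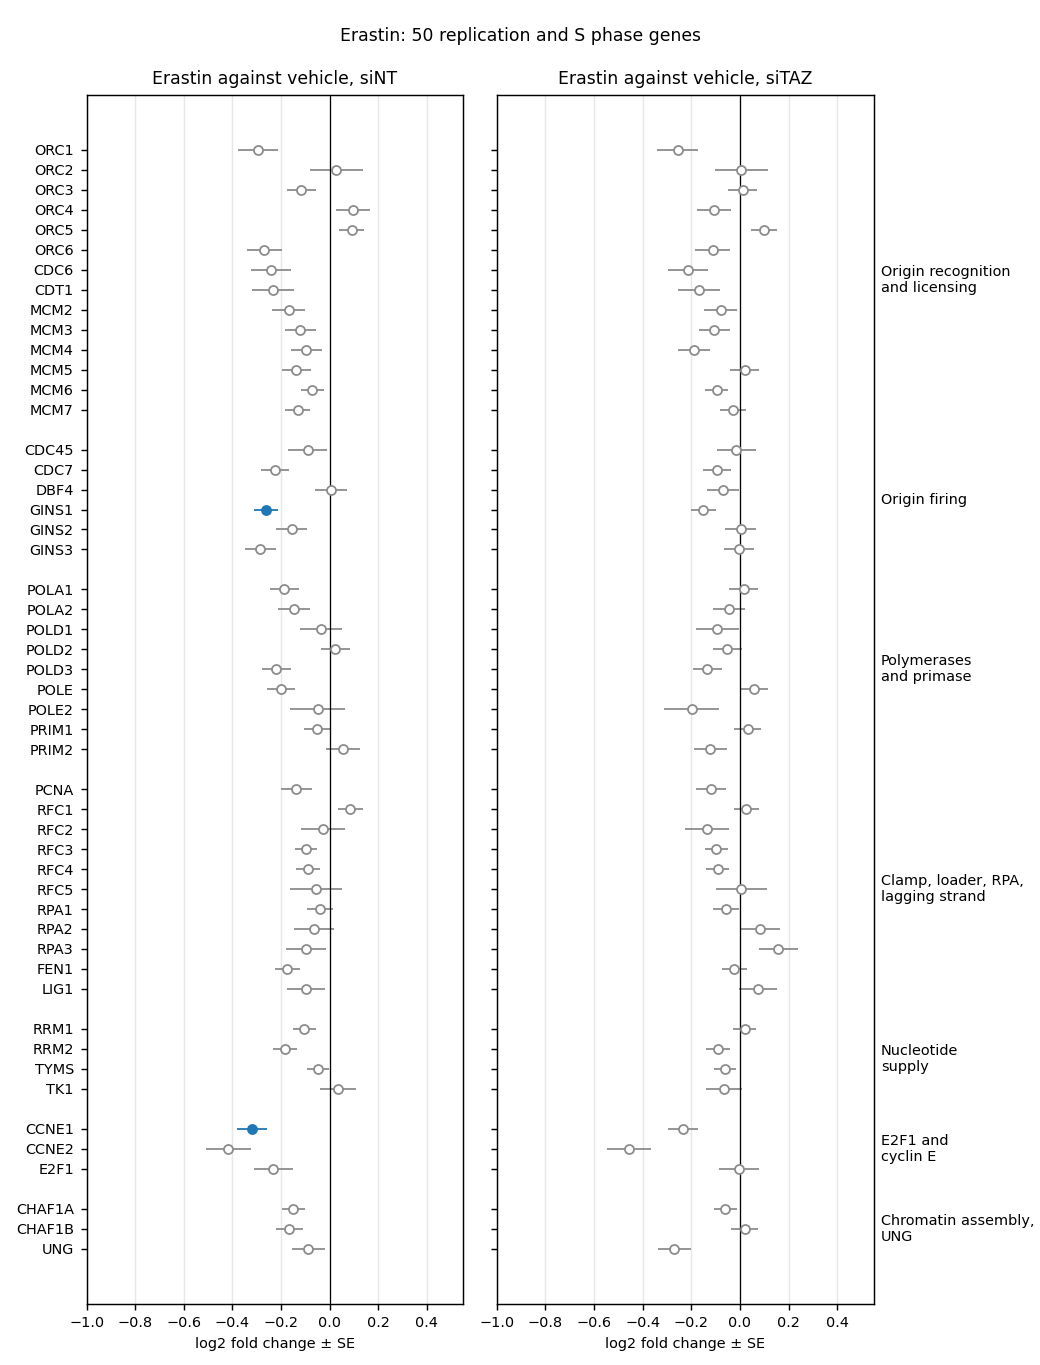
Log2 fold change of erastin against vehicle for each of the 50 members, in siNT and in siTAZ cells, with bars for the standard error and members grouped by role. Blue filled points fell and grey open points were not called. GINS1 and CCNE1 are the filled points, both in siNT cells, and CCNE2 is the lowest point in each panel.

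The interaction, the erastin effect in siTAZ cells minus that in siNT cells, was called in limma for 0 members and 0% of all 11963 genes. At an unadjusted p under 0.05, 0 members were lower and 5 higher, GINS3, POLE, POLA1, CHAF1B and RPA3, where 2.41% of all genes were lower and 3.98% higher. GINS3 was at 0.28 ± 0.09 (unadjusted p = 0.00834) and POLE at 0.26 ± 0.08 (unadjusted p = 0.00836), each with an adjusted p of 0.77. The member median was 0.07 against 0.02 for all genes. For CCNE2 the interaction was −0.04 ± 0.13 and for CCNE1 0.09 ± 0.09.

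Other genes of the same processes were examined as lists of named genes. Over all genes, 13.9% fell and 14.7% rose in vehicle, and 12.6% fell and 15.6% rose under erastin. Of 15 further replication genes, 5 fell in vehicle (33.3%) and 3 under erastin (20%) and 0 rose. In vehicle the helicase RECQL4 fell by 0.40 ± 0.08, the fork protection factor TIMELESS fell by 0.26 ± 0.06, GINS4 fell by 0.25 ± 0.07 and the polymerase delta subunit POLD4 fell by 0.25 ± 0.08. Under erastin the nuclease and helicase DNA2 fell by 0.26 ± 0.08, GINS4 fell by 0.20 ± 0.07 and DSCC1, of an alternative clamp loader, fell by 0.14 ± 0.05. In siTAZ cells DSCC1 also fell with erastin, by 0.25 ± 0.05. Of 10 further nucleotide synthesis genes, 4 fell (40%) and 1 rose (10%) in each medium. IMPDH2, of guanine nucleotide synthesis, fell by 0.58 ± 0.07 in vehicle and 0.70 ± 0.07 under erastin. The purine enzymes PAICS and GART fell by 0.45 ± 0.05 and 0.44 ± 0.05 in vehicle and by 0.42 ± 0.05 and 0.50 ± 0.05 under erastin. SAMHD1, which breaks down deoxynucleotides, rose by 0.45 ± 0.09 and 0.66 ± 0.09.

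Of 25 regulators of G1 and S phase, 8 fell (32%) and 2 rose (8%) in vehicle and 8 fell (32%) and 3 rose (12%) under erastin. Over all genes, 13.9% fell and 14.7% rose in vehicle, and 12.6% and 15.6% under erastin. The G1 kinase CDK6 fell by 0.57 ± 0.13 in vehicle and 0.90 ± 0.13 under erastin. E2F5, an E2F family member that acts as a repressor, fell by 0.55 ± 0.11 and 0.77 ± 0.11. CDK4, another G1 kinase, fell by 0.39 ± 0.06 and 0.38 ± 0.06. CKS1B, a CDK-binding protein, fell by 0.44 ± 0.06 in vehicle, and cyclin D3, CCND3, rose by 0.41 ± 0.05 under erastin. Both moved the same way in the other medium. CKS1B had means of 11.90 in siNT erastin and 11.65 in siTAZ erastin, and CCND3 8.99 in siNT vehicle and 9.35 in siTAZ vehicle. In siNT cells under erastin, the phosphatase CDC25A fell by 0.45 ± 0.07 and the licensing inhibitor GMNN fell by 0.28 ± 0.05.

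Histone supply and DNA methylation genes fell in 4 of 9 cases in vehicle (44.4%) and 3 under erastin (33.3%), where 13.9% and 12.6% of all genes fell. The histone acetyltransferase HAT1 fell by 0.41 ± 0.08 and 0.69 ± 0.08, the histone chaperone NASP by 0.40 ± 0.07 and 0.24 ± 0.07, and the chromatin remodeller HELLS by 0.25 ± 0.07 and 0.22 ± 0.07. The maintenance methyltransferase DNMT1 fell by 0.23 ± 0.06 in vehicle. Checkpoint and repair genes fell in 3 of 10 cases in vehicle (30%) and 2 under erastin (20%), against the same shares of all genes. The kinase WEE1 fell by 0.38 ± 0.06 and 0.41 ± 0.06. The checkpoint clamp subunit HUS1 fell by 0.26 ± 0.07 and the nuclease EXO1 by 0.25 ± 0.08 in vehicle, and the kinase CHEK2 by 0.23 ± 0.08 under erastin. The mismatch repair gene MSH6 fell by 0.27 ± 0.05 with erastin in siNT cells.

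Genes of mitosis, which act after S phase, fell in 17 of 24 cases in vehicle and in 13 under erastin with 1 riser, with medians of −0.28 and −0.19. Those that fell were 70.8% and 54.2%, where 13.9% and 12.6% of all genes fell. Of the 24 genes, 20 lay below 0 in each medium. The riser was MKI67, with mean signals of 8.12 in siNT erastin and 8.42 in siTAZ erastin. In vehicle its means were 8.24 and 8.40, and it was not called there. The kinesins of cytokinesis KIF23 and KIF20A fell by 0.77 ± 0.09 and 0.68 ± 0.08 in vehicle and by 0.84 ± 0.09 and 0.49 ± 0.08 under erastin. The spindle checkpoint kinase TTK fell by 0.50 ± 0.06 and 0.48 ± 0.06. The chromosomal passenger kinase AURKB fell by 0.56 ± 0.07 in vehicle, and the checkpoint protein MAD2L1 fell by 0.41 ± 0.10 under erastin. Both were also lower with siTAZ in the other medium. AURKB had means of 8.92 in siNT erastin and 8.62 in siTAZ erastin, and MAD2L1 10.43 in siNT vehicle and 10.11 in siTAZ vehicle. The difference between the mitosis list and the replication members was not tested.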

How the data were processed

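Total RNA from 12 RCC4 samples was hybridised to Affymetrix 3′ expression arrays. The deposited values are log2 signals of 22277 probe sets that the authors made by RMA in Affymetrix Expression Console, per the submitters' processing notes, which give no versions; the array annotation names genes for probe sets. Control probe sets (62), those naming several genes (1043) and those naming none (2108) were left out, which left 19064 probe sets for 11963 genes. Group means were fitted over all 12 arrays with limma 3.58.1 in R 4.3.3 (8 residual degrees of freedom), adjusted by Benjamini-Hochberg over all genes and called at an adjusted p under 0.05. The procedure was tested on simulated data. All adjusted p-values are limma's, and errors are standard errors unless stated. Array number limits the precision. The members and gene lists were chosen with earlier results of these data known. Values on every array are given for at most 4 called members of a role class and comparison, the largest fold changes first, and of each related list at most 4 called genes in a comparison are named, again the largest, by fold change. Alternatives were other scalings, filters, probe set rules, limma settings, a replicate block, the 2 compared groups alone, the actin covariate and each array left out. Same-numbered arrays deviated together, with a correlation over 0.1, in 4 of 18 pairs, so replicate numbers were not taken to pair the arrays.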

Additional observations from a re-analysis of the deposited data

How the results depend on the processing

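For the silencing comparisons, some member calls were kept under every alternative fit that was run for them and without each array. They were 12 of 25 in vehicle, 6 of 17 under erastin and 18 of 34 in the mean of both media. Fits of each probe set on its own were not part of that count. Under erastin, the member median was −0.13 with the mean of all probe sets. With a trended and robust prior 6 members rose, where 3683 genes were called in either direction. When only the 2 groups were fitted 9 fell and 1 rose (2535 genes called). With the actin covariate 6 fell, with a median of −0.045 (2556 genes called). In the mean of both media the median was −0.17 with the mean of all probe sets, and 19 fell and 3 rose with the actin covariate (4562 genes called). ORC5 was at 0.10 and RFC5 at −0.13 on their third-brightest probe sets, against their main direction. For erastin in siNT cells, 4 members fell after a second quantile normalisation (of 116 genes called) and 4 without the dimmest 25% of genes (of 144). With the trended prior 7 fell (of 186), with array weights 10 (of 324) and in the fit of 2 groups 0 (of 15). In siTAZ cells 1 fell with centred medians (66 genes called), quantile normalisation (83), the dim filter (89) or 2 groups (45). With the trended prior (164 genes called) or array weights (166), 2 fell. The interaction called 3 genes with centred medians, quantile normalisation, the dim filter or array weights and 10 with the trended prior, and its member median was 0.030 with the mean of all probe sets. With the replicate block, 20 and 12 members fell after silencing in vehicle and under erastin, with 3187 and 3104 genes called in either direction. Erastin then called 39 genes and 0 members in siNT cells and 34 genes in siTAZ cells. Not called with the block were CDC45, POLA2 and RRM1 in vehicle, CDT1, MCM7 and POLE under erastin, MCM4 in the mean of both media, and GINS1 and CCNE1 for erastin in siNT cells; 3 of 12 arrays were closest to their own number. With each array left out in turn, 12 to 22 members fell and 1 to 2 rose in vehicle, and 8 to 14 fell and 1 to 3 rose under erastin. The genes called in these fits were 2809 to 3030 in vehicle and 2775 to 3236 under erastin. Erastin then called 30 to 65 genes and lowered 0 to 3 members in siNT cells (median −0.14 to −0.10), and called 30 to 41 genes and lowered 0 to 1 members in siTAZ cells. The interaction then called 0 to 1 genes, with a member median of 0.040 to 0.097. The causes of these shifts were not tested.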
